A study of Mus musculus with 4 samples.

Results

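The integrated stress response is the route by which cells slow general protein synthesis and raise amino acid supply when they meet amino acid shortage, misfolded proteins, viral RNA or mitochondrial trouble. It was followed here through 36 genes, picked by symbol from the 55471 genes counted in each library: 4 eIF2 kinases, 7 transcription regulators, 2 eIF2 phosphatase subunits, 4 stress effectors, 7 enzymes of serine and one-carbon metabolism, 5 other amino acid enzymes, 5 amino acid transporters and 2 secreted signals. All 36 had a row. A second Ensembl record named Ddit3 held 0 counts in all libraries, and the record with counts was used.

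RNA was pulled down with tagged ribosomes from the brains of male GFAP-Cre+/- Rpl22HA/wt mice, in which Cre under the astrocyte promoter GFAP switches on an HA tag on 1 allele of the ribosomal protein gene Rpl22. Tagged ribosomes come from any cell in which that Cre was active, now or earlier in development. Both groups carried these alleles: 2 libraries were from mice labelled cuprizone, and 2 from mice labelled mock. The series' design text gives 0.2% cuprizone by weight in chow, which kills oligodendrocytes and strips the corpus callosum of myelin, a start at 8 to 9 weeks of age and control mice on normal chow. All 4 libraries are labelled 3 weeks and batch 1, whereas the design text speaks of collection at 5, 5.5 and 7 weeks, and it names the corpus callosum where the labels say brain. The labels number the libraries as biological replicates and do not say whether a library is 1 animal or a pool, so the p-values below reflect only how far these particular libraries differ, which may be in part technical.

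Each library held 21209517 to 23822620 counts. Levels are given as CPM, counts scaled to a common library total, and 3 counts, the level that a count of 0 still allows, are worth 0.126 to 0.141 CPM (counting error only). The labelled astrocytes were checked on 10 markers, whose summed share of counts was 0.606% and 0.659% under cuprizone and 1.07% and 1.01% under mock. All 10 had counts in all 4 libraries, and 9 had negative folds. For 6 both cuprizone libraries lay below both mock libraries, against 18.9% of all genes tested, and for 0 above, against 25.7%. The pull-downs also held transcripts typical of other cells: 10 neuron markers took 1.46% of counts in each cuprizone library and 1.28% and 1.32% in the mock libraries, and 10 oligodendrocyte markers took 1.05% and 1.36% against 1.32% and 1.53%. No input library is among the 4, so untagged RNA carried along cannot be told apart from RNA of other cells with tagged ribosomes. Folds of the neuron markers were mixed, 6 positive and 4 negative (median log2 fold 0.09), and those of the oligodendrocyte markers were 2 positive and 8 negative (median -0.20). Without overlap, 5 neuron markers were higher under cuprizone and 3 lower, and 1 oligodendrocyte marker was higher and 5 lower. The 10 microglia and macrophage markers were scarce, at 0.000554% and 0.000634% against 0.00227% and 0.00337% of counts; all 10 folds were negative (median log2 fold -3.21), and Cx3cr1 and Aif1 were at 0 in both cuprizone libraries. For 4 of 6 oligodendrocyte precursor markers both cuprizone libraries were lower, against 18.9% of all genes tested, and for 1 both were higher. Their median log2 fold was -1.13, with summed shares of 0.00778% and 0.00845% against 0.0118% and 0.0129%. The make-up of the RNA moved with the groups as well. The 9 mitochondrially encoded transcripts took 0.00252% and 0.00254% of counts under cuprizone and 0.0363% and 0.036% under mock. Both cuprizone libraries were lower for all 6 that could be tested (median log2 fold -4.04), against 18.9% of all genes tested. The 4 nuclear long non-coding RNAs took 0.0891% and 0.0909% against 0.02% and 0.018% (median log2 fold 2.11), and Malat1, Meg3 and Snhg11 among them passed edgeR's test (adjusted p = 0.029, 0.0176 and 0.0071). The part of any of these differences in the results below was not tested, and fewer cells of a type cannot be told apart from less RNA per cell.

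In the pathway, 4 kinases sense different stresses: HRI (Eif2ak1) senses loss of heme and mitochondrial stress, PKR (Eif2ak2) double-stranded RNA, PERK (Eif2ak3) misfolded protein in the endoplasmic reticulum, and GCN2 (Eif2ak4) uncharged tRNA. Each phosphorylates the initiation factor eIF2, which lowers most translation but lets ATF4 be made, and ATF4, often paired with a C/EBP protein, switches on genes for amino acid synthesis, amino acid import and tRNA charging. Astrocytes are known as the brain's makers of L-serine, which they pass to neurons.

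The DNA element that ATF4 and C/EBP proteins bind together contains the letters TGATGNAA, and the promoters show how widely this group of genes carries it. RefSeq promoters on GRCm38.p6, 300 bases each from 250 before the start site, were found for 32 of the 36 genes, and 9 of the 32 (28.1%) held TGATGNAA or its reverse complement TTNCATCA, against 4.51% of all 27025 genes in the table and 3.97% of its 32851 promoters. The 9 were Atf3, Chac1, Trib3, Asns, Pycr1, Pck2, Slc1a4, Nupr1 and Fgf21. The 36 genes include known ATF4 targets, so a share above that of all genes came with the choice of genes and is not a finding. A match describes the letters and is not a measured binding site. The 4 promoters shown are those of the match holders with the lowest p-values in the expression test below, from 120 bases before to 10 bases after the start, with the match in capitals:
Nupr1, chr7:126625461-126625590, minus strand: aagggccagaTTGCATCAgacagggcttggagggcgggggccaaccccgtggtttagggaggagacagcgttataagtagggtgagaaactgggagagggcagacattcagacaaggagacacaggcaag
Pck2, chr14:55540146-55540275, plus strand: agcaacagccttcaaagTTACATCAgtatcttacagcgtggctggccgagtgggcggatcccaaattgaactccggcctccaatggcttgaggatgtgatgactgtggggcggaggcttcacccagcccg
Slc1a4, chr11:20332704-20332833, minus strand: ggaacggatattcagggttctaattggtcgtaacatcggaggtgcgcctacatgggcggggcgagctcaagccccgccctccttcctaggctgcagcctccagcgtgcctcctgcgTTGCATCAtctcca
Asns, chr6:7693200-7693329, minus strand: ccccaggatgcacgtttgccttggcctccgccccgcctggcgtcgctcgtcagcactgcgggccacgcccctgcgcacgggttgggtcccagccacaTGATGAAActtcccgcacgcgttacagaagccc
The match began 110 bases before the start in Nupr1, 103 in Pck2, 4 in Slc1a4 and 23 in Asns. As the values below show, Pck2 and Asns were higher in the cuprizone libraries, and Nupr1 and Slc1a4 were lower.

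The comparison asks how the ribosome-bound RNA of this pathway differed between cuprizone and mock mice. The pathway as a whole lay where other genes lay. Among members with positive folds, Pck2 and Asns had the lowest unadjusted p by edgeR (0.0116 and 0.0723), and the interval of Asns spanned 0. Among members with negative folds, Nupr1 and the transporter chain Slc3a2 had the lowest. Atf4 itself was close to level. EdgeR's quasi-likelihood test over 15816 genes, with Benjamini-Hochberg adjustment, called 0 of the 34 members that passed the filter on low counts; it called 0.0822% of all genes tested. At an unadjusted p under 0.05 it had 3 of the 34, Nupr1, Pck2 and Slc3a2, or 8.82%, against 12.8% of all genes tested. Of the 3, Pck2 was higher and the other two lower; 5.73% of all genes were higher and 7.04% lower at that p. DESeq2 called 1 member, Nupr1, against 4.74% of the genes it tested, and limma-voom 0, against 0.297%.

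The median log2 fold, cuprizone over mock, was 0.09 over the 34 members and 0.00 over all genes tested, with 21 positive and 13 negative folds. For 9 members both cuprizone libraries lay above both mock libraries (26.5%, against 25.7% of all genes tested), and for 6 they lay below (17.6%, against 18.9%), so both shares were near the background. On CPM scaled by the TMM factors the counts were 8 and 6, against 21.9% and 22.5% of all genes, and Psat1 was the member that then overlapped. A permutation of 2 against 2 libraries cannot give a two-sided p under 1 in 3, so none was run for single genes. The replicates themselves differed: the cuprizone pair was more than 1.5-fold apart for 15 of the 34 members (44.1%, against 38.7% of all genes tested) and the mock pair for 10 (29.4%, against 34.2%).

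**Figure D1:**
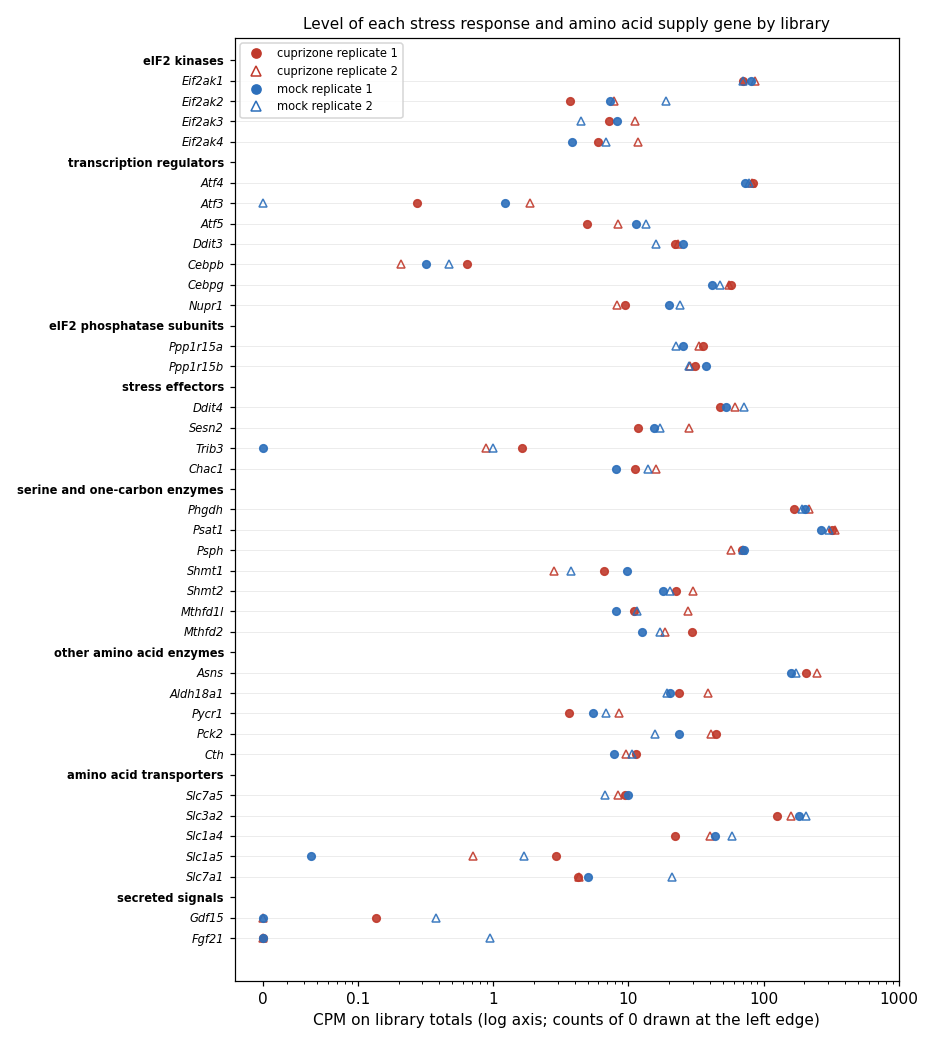
CPM of each of the 36 genes in the 4 libraries on a log axis, by role (red, cuprizone; blue, mock; filled circles, replicate 1; open triangles, replicate 2; zeros at the left edge). Pck2 and Nupr1 have both colours apart, whereas Atf4 and Eif2ak1 have them nearly on top of each other.

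Levels between genes can be compared per length, here as the mock mean CPM per kilobase of annotated exon. On that scale the first enzymes of serine synthesis stood at the top, Phgdh at 79.1 and Psat1 at 67.1, followed by Asns at 61.0, Slc3a2 at 54.7, Ddit4 at 35.4 and Atf4 at 32.0; Psph, the last enzyme of serine synthesis, was at 16.4. The kinases were lower, with Eif2ak1 at 13.3 and the other 3 between 0.716 and 2.58. Atf3, Cebpb, Trib3 and Slc1a5 lay between 0.209 and 0.283, and Gdf15 at 0.102. The order at the top of the cuprizone libraries was Asns at 82.9, Psat1 at 77.3 and Phgdh at 77.1 CPM per kilobase. Exon lengths sum all annotated exons of a gene, so a gene with rare long isoforms, such as Pck2 with 7.81 kilobases, is understated on this scale.

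None of the 4 kinases had groups that did not overlap, against 44.6% of all genes tested, and 4 genes are too few to set against that share. Eif2ak1, the most abundant of them, had 70.5 and 86.0 CPM in the cuprizone and 81.2 and 69.9 in the mock libraries, a log2 fold of -0.02 (SE 0.21, 95% interval -0.52 to 0.48). The folds of Eif2ak3 and Eif2ak4 were 0.46 (SE 0.52) and 0.66 (SE 0.57), with 1 cuprizone library above both mock libraries for each. Eif2ak2 had 3.71 and 7.89 CPM in cuprizone and 7.33 and 19.1 under mock, with a log2 fold of -1.25 (SE 0.63); mock replicate 2 was the high library, and without it the fold was -0.38. Without cuprizone replicate 2, the folds of Eif2ak3 and Eif2ak4 were 0.10 and 0.09, and without mock replicate 2 that of Eif2ak3 was 0.10.

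Atf4, the central transcription factor of the response, was close to level between the groups. It had 83.7 and 81.9 CPM under cuprizone, and 73.4 and 77.5 under mock. Both cuprizone values were the higher ones, but the log2 fold was 0.07 (SE 0.18, 95% interval -0.36 to 0.49). The edgeR adjusted p was 0.952. ATF4 protein is governed mainly at translation, and counts of pulled-down transcripts do not show how many ribosomes sat on each. Cebpg, a C/EBP protein that pairs with ATF4, had 56.9 and 55.2 CPM in the cuprizone against 41.5 and 47.7 in the mock libraries. Again the groups did not overlap, with a log2 fold of 0.26 (SE 0.21, adjusted p = 0.696 by edgeR).

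Over the 7 regulators 5 folds were positive and 2 negative, the negative ones being those of Nupr1 and Atf5. Nupr1, a small stress-induced chromatin protein, had 9.48 and 8.19 CPM under cuprizone, and 20.1 and 24.0 under mock. Its means were 8.83 ± 0.916 and 22.0 ± 2.77 CPM (SD, n = 2 each), with a wide gap between the groups. The log2 fold was -1.39 (SE 0.34, 95% interval -2.21 to -0.57), and the edgeR adjusted p was 0.21. Over the alternatives the adjusted p of Nupr1 ran from 0.0371, with DESeq2, to 0.54, while its fold stayed between -1.51 and -1.23 with any 1 library left out. Atf5, a transcription factor made in the same manner as ATF4, had 4.95 and 8.40 CPM against 11.4 and 13.4. Both cuprizone libraries were lower, with a log2 fold of -0.96 (SE 0.45, adjusted p = 0.451 by edgeR). Without cuprizone replicate 1 the fold of Atf5 was -0.62. Exons of Atf5 overlap those of Nup62 on the opposite strand, and the strand setting of the counting is not given, so reads of the pair may not be told apart.

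Ddit3, which encodes the pro-death factor CHOP, had 22.0 and 23.2 CPM in cuprizone and 25.2 and 15.9 in mock libraries, with overlapping groups and a log2 fold of 0.07 (SE 0.34). Its exons overlap those of the synthetase gene Mars on the opposite strand. Atf3, an early stress factor, and Cebpb were near the floor, with 0 to 45 counts for Atf3 and 5 to 14 for Cebpb in a library. At that depth no difference was detectable for either.

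Among the negative feedback genes, Ppp1r15a, which encodes the inducible phosphatase subunit GADD34, had 35.4 and 33.2 CPM in the cuprizone and 25.2 and 22.3 in the mock libraries. The groups lay clear of each other, and the log2 fold of 0.46 (SE 0.26, adjusted p = 0.533 by edgeR) ran from 0.40 to 0.55 with 1 library left out. Ppp1r15b, the constitutive subunit, had 31.1 and 28.5 CPM against 37.4 and 27.8, with overlapping groups and a log2 fold of -0.20 (SE 0.27).

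The stress effectors overlapped between groups in all 4 cases, whereas 44.6% of all genes tested did not overlap. With 4 genes, this count is too small to set against that share. Ddit4, an inhibitor of the growth kinase mTORC1, had 47.6 and 61.7 CPM in the cuprizone and 53.0 and 71.2 in the mock libraries, a log2 fold of -0.25 (SE 0.25). Sesn2, a leucine sensor, had 11.7 and 28.0 CPM in cuprizone against 15.4 and 17.2 in mock libraries; the 2 cuprizone libraries bracketed the mock pair. Its log2 fold of 0.22 (SE 0.47) was -0.56 without cuprizone replicate 2. Chac1, which degrades glutathione and is a sensitive ATF4 target, had 11.3 and 15.99 against 8.14 and 13.9 CPM, a log2 fold of 0.24 (SE 0.44). Trib3, a pseudokinase that restrains ATF4, had 36 and 21 counts in cuprizone and 0 and 21 in mock libraries, too few to show a difference.

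**Figure D2:**
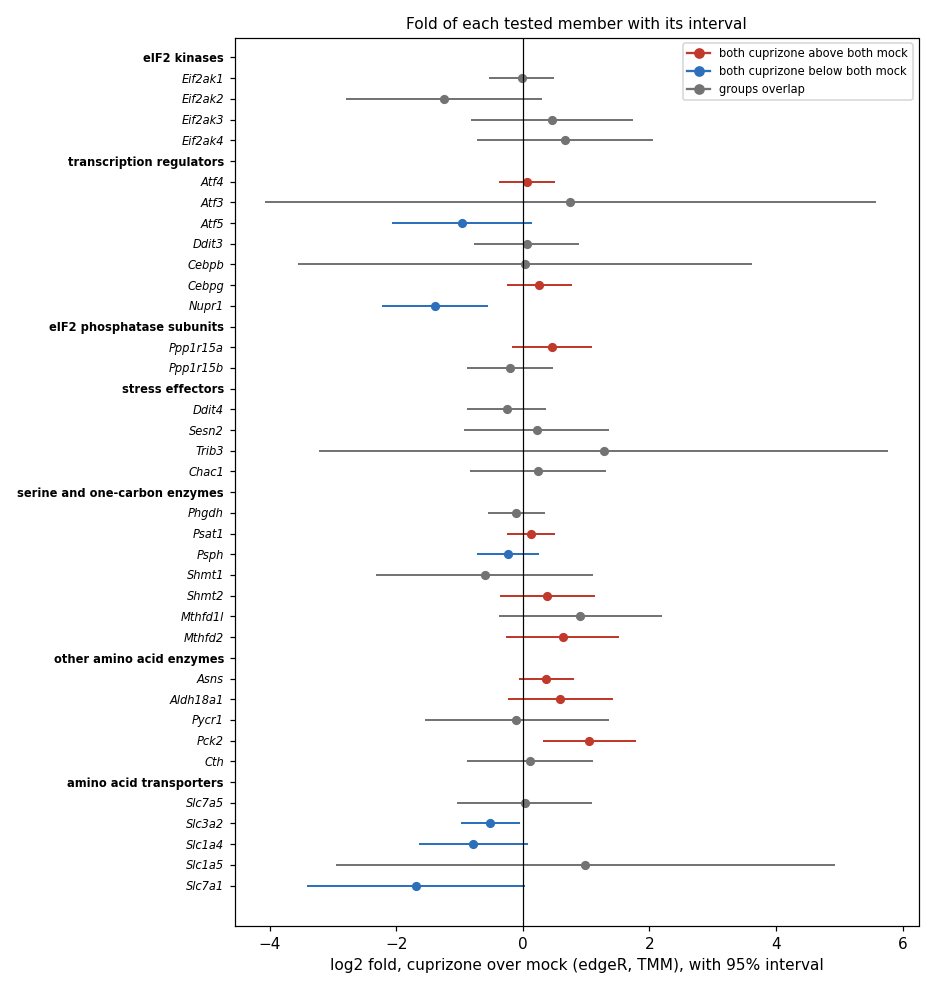
Log2 fold of each of the 34 tested genes with its 95% interval from the edgeR fit, coloured by whether the 2 groups overlap. Only the intervals of Nupr1, Pck2 and Slc3a2 lie clear of 0 before adjustment over all genes, and the low-count genes Atf3, Cebpb, Trib3 and Slc1a5 have the widest intervals.

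Serine synthesis from glycolysis runs through Phgdh, Psat1 and Psph in turn. The folds of these 3 genes differed in sign, but all 3 intervals spanned 0, and differences between the steps were not tested. Phgdh had 168 and 215 CPM in cuprizone and 203 and 190 in mock libraries, so the groups overlapped (log2 fold -0.11, SE 0.18). Psat1 had 322 and 335 against 264.5 and 306 CPM, with both cuprizone libraries higher by a small margin and an interval of -0.23 to 0.49. Psph had 68.9 and 57.1 against 71.2 and 70.4 CPM, both cuprizone libraries lower, a log2 fold of -0.24 (SE 0.20). Psph shares exonic sequence on the opposite strand with Cct6a, a chaperonin gene with more counts. Opposite-strand exon overlaps also involve Shmt1 with Smcr8, Cebpb with Tmem189 and Eif2ak1 with Aimp2, of which Smcr8 and Tmem189 had more counts than the member and Aimp2 fewer.

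The mitochondrial one-carbon enzymes, which turn serine into glycine and formate, all had positive folds. Shmt2, the mitochondrial serine hydroxymethyltransferase, had 22.6 and 29.9 CPM in cuprizone and 18.1 and 20.2 in mock libraries, with a log2 fold of 0.39 (SE 0.30). Mthfd2, the next enzyme in that path, had 29.4 and 18.8 against 12.7 and 17.0 CPM, a log2 fold of 0.63 (SE 0.36) that was 0.27 without cuprizone replicate 1. For both, the 2 cuprizone libraries were above the 2 mock libraries, and neither passed (edgeR adjusted p = 0.685 and 0.554). Mthfd1l, which releases formate, had 11.0 and 27.7 against 8.05 and 11.6 CPM; its log2 fold of 0.91 (SE 0.52) rested on cuprizone replicate 2 and was 0.08 without it. The cytosolic Shmt1 had 6.55 and 2.81 against 9.72 and 3.77 CPM, a log2 fold of -0.60 (SE 0.70), with replicate 2 the lower library in each group.

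Of the remaining enzymes, Pck2 had the largest gap. It encodes the mitochondrial phosphoenolpyruvate carboxykinase, a known ATF4 target. Pck2 had 44.2 and 40.7 CPM under cuprizone, and 23.5 and 15.7 under mock, means of 42.5 ± 2.46 and 19.6 ± 5.53 CPM (SD, n = 2 each). Both cuprizone values stood well above both mock values. The log2 fold was 1.05 (SE 0.30, 95% interval 0.33 to 1.77), about 2.07-fold, with an edgeR adjusted p of 0.254. Over the alternatives the adjusted p of Pck2 ran from 0.0518 to 0.576, and its fold from 0.81 to 1.37 with 1 library left out.

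Asns, which makes asparagine and is a classical target of amino acid shortage, had 204 and 250 CPM in the cuprizone and 159 and 175 in the mock libraries. The groups did not overlap, and the log2 fold was 0.37 (SE 0.17, 95% interval -0.05 to 0.79, adjusted p = 0.445 by edgeR). Aldh18a1, the first enzyme of proline synthesis, had 23.5 and 39.0 against 20.2 and 19.4 CPM. Its log2 fold of 0.59 (SE 0.34) was 0.17 without cuprizone replicate 2, the high library. Pycr1, the last enzyme of the same path, had 3.62 and 8.48 against 5.52 and 6.84 CPM, and Cth, which makes cysteine, 11.4 and 9.61 against 7.87 and 10.6 CPM; both overlapped, with log2 folds of -0.10 (SE 0.59) and 0.12 (SE 0.41).

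The transporters had the lowest median fold of the role groups, -0.51 over 5 genes, while the 5 enzymes just described had 0.37; the difference between the 2 sets was not tested. Slc3a2, the heavy chain that carries several amino acid exchangers to the membrane, had 126 and 158 CPM in the cuprizone and 181 and 205 in the mock libraries. The groups did not overlap, with means of 142 ± 22.8 and 193 ± 16.5 CPM (SD, n = 2 each). The log2 fold was -0.51 (SE 0.19, 95% interval -0.96 to -0.06), with an edgeR adjusted p of 0.332. Slc1a4, an exchanger of serine, alanine and cysteine found in astrocytes, had 22.0 and 40.3 against 43.6 and 58.7 CPM. Cuprizone replicate 2 came close to mock replicate 1, and the log2 fold of -0.78 (SE 0.35, adjusted p = 0.428 by edgeR) was -0.41 without cuprizone replicate 1. The 10 astrocyte markers, with a median log2 fold of -0.64, lay lower in the same libraries; their part in the transporter values was not tested.

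Slc7a1, the main carrier of arginine and lysine, had 4.26 and 4.28 CPM in cuprizone and 5.07 and 21.2 in mock libraries. The groups did not overlap, but mock replicate 2 alone was high: the log2 fold was -1.69 (SE 0.71) and -0.29 without that library. Slc7a5, the light chain that pairs with Slc3a2 to carry leucine, had 9.39 and 8.44 against 9.91 and 6.74 CPM, a log2 fold of 0.03 (SE 0.43). Slc1a5, a glutamine carrier, had 64 and 17 counts in cuprizone and 1 and 36 in mock libraries, and the pairs differed within each group more than the groups did. The hormones of the response were at the limit of detection. Gdf15 had 3, 0, 0 and 8 counts and Fgf21 0, 0, 0 and 20 counts in cuprizone replicates 1 and 2 and mock replicates 1 and 2. Neither passed the filter on low counts, and a level below 0.126 to 0.141 CPM could have been missed.

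On GRCm38, Pck2 (ENSMUSG00000040618) spans 55540266 to 55551242 on chromosome 14, Nupr1 (ENSMUSG00000030717) 126623249 to 126630861 on chromosome 7, Slc3a2 (ENSMUSG00000010095) 8706882 to 8723369 on chromosome 19, Asns (ENSMUSG00000029752) 7675169 to 7693254 on chromosome 6 and Atf4 (ENSMUSG00000042406) 80255184 to 80257541 on chromosome 15. Each count covers a whole gene, so no value belongs to a single exon or transcript.

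The neighbouring machinery was read from 6 lists of 81 further genes, of which 79 could be tested. EdgeR called 0 of the 79, against 0.0822% of all genes tested, and had 11 at an unadjusted p under 0.05 (13.9%, against 12.8%). DESeq2 called 2 of the 79, Vldlr and Gcn1l1, against 4.74% of all the genes it tested, and limma-voom 0, against 0.297%. The list of cytosolic aminoacyl-tRNA synthetases, which load tRNAs with amino acids and include ATF4 targets, was the most one-sided. For 12 of its 20 genes both cuprizone libraries were above both mock libraries (60%, against 25.7% of all genes tested), and for 0 they were below (against 18.9%). On CPM scaled by the TMM, RLE or upper-quartile factors the counts were again 12 and 0. Of all genes tested, 21.9% to 22.2% were then higher and 22.2% to 22.5% lower. The median log2 fold was 0.28, 17 folds were positive, and the median ran from 0.21 to 0.42 with 1 library left out. EdgeR called 0 of the 20, against 0.0822% of all genes tested, and 4 had an unadjusted p under 0.05 (20%, against 12.8%). DESeq2 and limma-voom called 0 each, against 4.74% and 0.297% of the genes they tested. The list was fixed with earlier results of these data known, and these counts are a description with no test of the list.

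Aars, which charges alanine tRNA, had 239 and 311 CPM in the cuprizone and 180 and 170 in the mock libraries, a log2 fold of 0.59 (SE 0.18, adjusted p = 0.278 by edgeR). Iars, for isoleucine, had 46.35 and 49.99 against 27.0 and 29.3 CPM, a log2 fold of 0.70 (SE 0.23, adjusted p = 0.293 by edgeR). Nars, for asparagine and the most abundant of the list in CPM, had 445 and 473 against 353 and 297 CPM, a log2 fold of 0.43 (SE 0.15). In all 3 the groups lay clear of each other. Tars, for threonine, had 69.9 and 77.6 against 51.3 and 48.3 CPM, a log2 fold of 0.50 (SE 0.20). Of the 13 synthetases with a promoter in the table, 5 held the letters TGATGNAA on either strand (38.5%): Aars, Gars, Iars, Tars and Yars. In the other lists, 1 of 7 eIF2 and eIF2B genes and 4 of 14 other ATF4 or CHOP targets held them. The folate and glycine cleavage enzymes had 0 of 10, the other transporters 0 of 6 and the amino acid sensing genes 0 of 11.

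**Figure D3:**
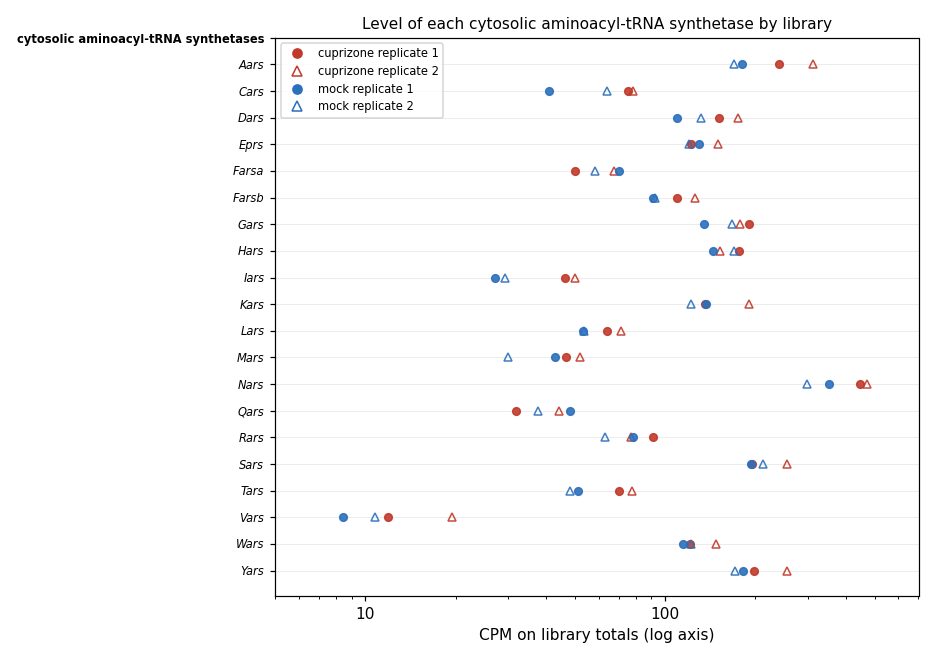
CPM of the 20 cytosolic aminoacyl-tRNA synthetases in each library on a log axis (red, cuprizone; blue, mock; filled circles, replicate 1; open triangles, replicate 2). The red symbols lie right of the blue ones for 12 genes, with the widest gap between the groups for Iars, and the colours mix for the other 8.

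The translation factors that the kinases act on were near level. The 8 subunits of eIF2, and of its exchange factor eIF2B, had a median log2 fold of 0.03 and folds from -0.25 to 0.33. By edgeR 0 of the 8 had an unadjusted p under 0.05, against 12.8% of all genes tested. Without overlap, 2 were higher and 1 lower (25% and 12.5%, against 25.7% and 18.9% of all genes tested). Eif2s2, the beta subunit of eIF2, had 135 and 128 CPM in the cuprizone and 160 and 138 in the mock libraries, a log2 fold of -0.25 (SE 0.17).

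Sensing of amino acids had 14 genes with a median log2 fold of 0.19, of which 5 were higher without overlap (35.7%, against 25.7% of all genes tested) and 1 lower (7.14%, against 18.9%). Gcn1l1, the ribosome-bound activator that GCN2 needs, had 24.6 and 31.2 CPM in the cuprizone and 6.42 and 10.1 in the mock libraries. That is the widest gap in these lists among genes above 5 CPM on average, a log2 fold of 1.69 (SE 0.38, 95% interval 0.78 to 2.60). The edgeR adjusted p of Gcn1l1 was 0.192, with a range of 0.00585 (DESeq2) to 0.503 over the alternatives. Impact, which holds GCN2 back by competing for GCN1, had 519 and 516 against 405 and 396 CPM, a log2 fold of 0.30 (SE 0.13, adjusted p = 0.415 by edgeR). The replicates of Impact differed little and the groups did not overlap.

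Of the 14 other ATF4 or CHOP targets tested, 3 were higher and 3 lower without overlap (21.4% each, against 25.7% and 18.9% of all genes tested), and the median log2 fold was 0.01. Vldlr, a lipoprotein receptor, had 38.2 and 41.3 CPM in the cuprizone and 70.1 and 63.7 in the mock libraries, a log2 fold of -0.82 (SE 0.21, adjusted p = 0.217 by edgeR). Cbs, which feeds cysteine synthesis and is rich in astrocytes, had 54.6 and 65.3 against 91.5 and 82.7 CPM, a log2 fold of -0.61 (SE 0.20). Herpud1, which serves disposal of misfolded protein, had 129 and 148 against 99.5 and 82.9 CPM, higher in both. Sqstm1, an autophagy receptor and the most abundant in CPM of this list, had 955 and 1120 against 999 and 872 CPM, with overlapping groups.

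The 13 folate and glycine cleavage enzymes had a median fold of 0.14 on the log2 scale, with 4 higher and 2 lower without overlap (30.8% and 15.4%, against 25.7% and 18.9% of all genes tested). Gcsh, the carrier protein of glycine cleavage, had 63.7 and 61.5 CPM in the cuprizone and 95.5 and 93.1 in the mock libraries, a log2 fold of -0.66 (SE 0.18, adjusted p = 0.235 by edgeR). Mthfd1, the cytosolic folate enzyme, had 68.1 and 86.9 against 46.4 and 53.1 CPM, a log2 fold of 0.57 (SE 0.22). Dld, the dehydrogenase that glycine cleavage shares with other complexes, had 260 and 281 against 221 and 200.5 CPM. The other 10 amino acid transporters had a median of -0.14, with 7 negative folds. Slc7a2, a second arginine carrier, had 10.7 and 5.50 against 16.1 and 26.3 CPM, a log2 fold of -1.46 (SE 0.47, adjusted p = 0.292 by edgeR), and Slc38a1, the most abundant of them in CPM, had 98.2 and 121 against 109 and 111 CPM.

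**Figure D4:**
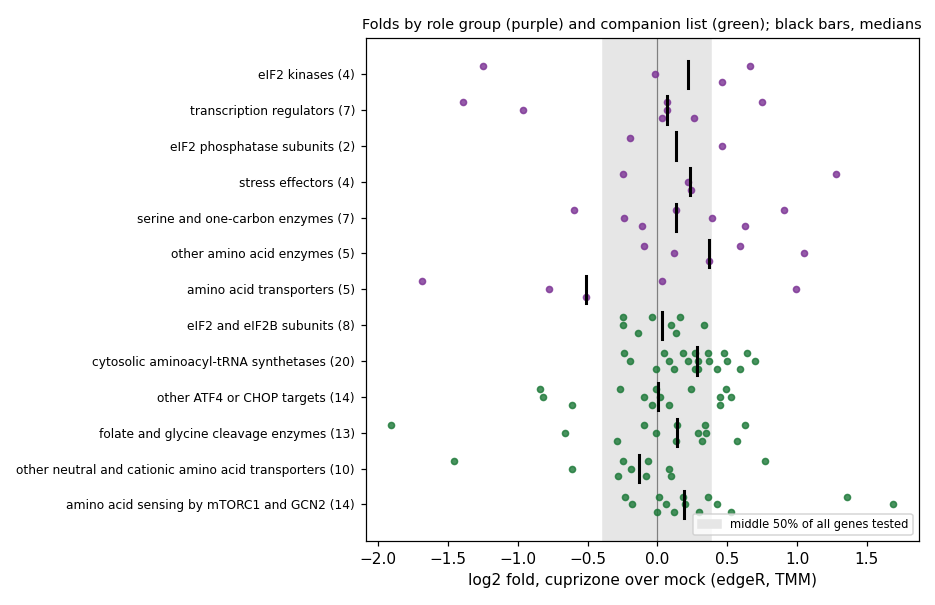
Log2 fold, cuprizone over mock, of each tested gene by role group (purple) and companion list (green), with medians as black bars, the number of genes in parentheses and the middle 50% of all genes tested shaded (-0.39 to 0.38). The medians of all lists but the transporters lie in the shaded band, those of the transporters at -0.51 and of the synthetases at 0.28.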

How the data were processed

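Ribosome-bound RNA of 4 mouse brain samples was sequenced. The authors deposited raw counts per Ensembl gene, 1 table per library, not normalized. Per the submitters' processing notes, FastQC 0.11.9, STAR 2.5.4b and featureCounts 1.6.0 were used with GRCm38 (mm10); for the annotation, strand setting and multi-mapping reads, the choices were not given in the sources used here. Symbols, coordinates and exon lengths came from GENCODE M21 (55230 of 55471 ids matched), promoters from RefSeq on GRCm38.p6. The fit over the whole table used edgeR 4.0.16 under R 4.3.3 (TMM factors, filterByExpr on the groups, robust glmQLFit with the version's default dispersions, glmQLFTest, two-sided, Benjamini-Hochberg, threshold 0.05). The SE is the log2 fold divided by the square root of F, and 95% intervals use the fit's t quantile. CPM are on library totals. Groups came from the sample titles. In data simulated from these libraries over 14994 genes, the test called 87% of 100 genes changed by 2 on the log2 scale. It called 40% of 100 changed by 1, and 7 unchanged genes. Simulated spread followed the trend of spread with level and left out each gene's own, and low-level genes were not among those changed. The rates therefore do not give the power for the members. Neither replicate pair was 1 library under 2 names: chi-square over genes, divided by its degrees of freedom, was 56.5 for cuprizone and 35.1 for mock. The 36 members and all lists were chosen with earlier results of these data known. Values in every library are given for members with groups that do not overlap, an unadjusted p under 0.05 or the highest CPM of their role group, and for others where space allowed; in each companion list, for up to 4 genes with an unadjusted p under 0.05 and no overlap, and the most abundant. Alternatives were DESeq2 1.42.0, limma-voom (limma 3.58.1), other factors, filters and dispersions, a replicate block and each library left out.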

Additional observations from a re-analysis of the deposited data

How the results depend on the processing

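The edgeR count of members called, 0, was 1 with DESeq2 (the log2 fold of Nupr1 was -1.38, adjusted p = 0.0371) and 0 in the other alternatives. That of the companion lists, 0, was 2 with DESeq2 (Vldlr, -0.81, adjusted p = 0.0426, and Gcn1l1, 1.69, adjusted p = 0.00585). Over all genes the 13 calls became 720 with DESeq2, 47 with limma-voom, 51 with bias-adjusted dispersions, 191 with no filter, 68 keeping genes of mean CPM 1 or more, and 5 to 123 with 1 library left out; the cause was not tested. Replicate numbers showed no sign of pairing samples: the correlation across 18190 genes of the difference between replicates 1 and 2, cuprizone with mock, was 0.008. With the replicate number as a block there were 10 calls over all genes and 0 among members, the folate median was 0.27 and the Cebpb fold -0.12. Groups that do not overlap rose from 15 members to 24 to 26 and from 36 companion genes to 57 to 61 with 1 library left out, since 2 libraries then face 1. The matching shares of all genes are not given here, so these higher counts are not read as a result. The median fold of all members stayed at 0.02 to 0.12 with 1 library left out, that of the transporters at -0.70 to -0.29 and that of the other enzymes at 0.21 to 0.52. Medians that moved by more than the spread between replicates, with 1 library left out, ran from -0.05 to 0.44 for the kinases, -0.20 to 0.06 for the transcription regulators, 0.01 to 0.29 for the phosphatase subunits, -0.26 to 0.60 for the stress effectors, 0.08 to 0.27 for the serine and one-carbon enzymes, -0.07 to 0.02 for eIF2 and eIF2B, 0.21 to 0.42 for the synthetases, 0.10 to 0.25 for the other ATF4 or CHOP targets, 0.05 to 0.25 for the folate enzymes, -0.27 to 0.10 for the other transporters and 0.12 to 0.33 for amino acid sensing. With library totals only, the medians were 0.20 for the serine enzymes, 0.10 for eIF2 and eIF2B and 0.21 for the folate enzymes, which were at 0.28 with limma-voom. Of 50 named genes, 35 kept their direction in every alternative that gave a value, 697 pairs of gene and alternative in all; Atf3, Cebpb and Trib3 had none under the filter on mean CPM. Reversals outside leaving out a library were Eif2ak1 (0.05) and Slc38a1 (0.00) with library totals only, and Cebpb with limma-voom (-0.16) and with the block. With 1 library left out, folds that changed sign ran from -0.18 to 0.12 for Eif2ak1, -1.22 to 7.58 for Atf3, -0.20 to 0.44 for Ddit3, -0.95 to 0.62 for Cebpb, -0.37 to 0.03 for Ppp1r15b, -0.56 to 0.72 for Sesn2, -0.10 to 0.70 for Chac1, -0.31 to 0.06 for Phgdh, -1.32 to 0.24 for Shmt1, -0.85 to 0.39 for Pycr1, -0.08 to 0.37 for Cth, -0.20 to 0.33 for Slc7a5, -0.35 to 5.12 for Slc1a5, -0.05 to 0.20 for Sqstm1 and -0.24 to 0.08 for Slc38a1. Depth limits Atf3, Cebpb, Trib3, Slc1a5, Gdf15 and Fgf21. Scaling CPM by the TMM factors for the overlap was chosen after seeing the data.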
